A study of Oryza sativa with 35 samples.

Results

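In rice inflorescence meristems, 350 loci had a lower measured RNA level in R4 and R5 tissue than in R1 and R2 tissue in both lines studied. R4 and R5 jointly are called late below, and R1 and R2 early, from the numbers in the codes, which the labels do not define. The loci were chosen by their measured values. A locus needed 100 or more UMIs (unique molecular identifiers, which count RNA molecules) over 35 libraries. Its pooled level, the summed counts over the summed library totals in CPM (UMIs scaled to a common library total), had to be at most 0.6 times as high late as early in Koshihikari and in NIL-Gn1 each. Of 55801 loci in the table, 9907 had 100 UMIs and 377 passed the ratio in both lines. Taking out 6 of them by name and 21 in 2 windows on chromosomes 1 and 12, which the rule sets aside, left 350, or 3.53% of the 9907. Because the late and early values chose these loci, their late against early levels are described without a test.

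The inflorescence meristem is the growing tip that first makes panicle branches and then gives way to spikelet meristems, which make the florets. Genes that keep the tip vegetative or branching decline as spikelet identity is set, while floral identity genes come up. MADS-box transcription factors of the SVP-like group, to which OsMADS22, OsMADS47 and OsMADS55 belong in rice, are known for delaying the floral step and for roles in brassinosteroid responses.

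The libraries were made by CEL-Seq2, which counts the 3′ ends of polyadenylated RNA, so a level does not scale with transcript length. Koshihikari, a japonica cultivar, had 5 libraries of R1 tissue, 5 of R2, 3 of R4 and 3 of R5. NIL-Gn1, named as a near-isogenic line for the grain number locus Gn1, had 8, 8, 1 and 2, and the allele it carries is not labelled. All plants of both lines grew in humid chambers under short days, and the labels name no other treatment, transgene or plant age.

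Library totals ran from 76743 to 375071 UMIs. The limit that a count of 0 allows, taken as 3 counts, was 4.24 CPM over the late Koshihikari libraries and 5.27 CPM over the late NIL-Gn1 libraries. Whether replicate libraries came from different plants is not labelled, and the p-values below therefore measure a spread that may be technical. In principal components of log2 levels, Koshihikari R2 replicate 1 stood at 63.7 on the second component and the other 34 libraries between -16.7 and 16.4. Replicates 4 and 5 of the same group reached 38.9 and 35.6 on component 4, where the highest of the other 33 libraries had 27.5. Leaving out these 3 libraries gave 328 loci by the same rule. Of the markers of meristem tissue, OSH1 and OSH6 were detected and OSH43 was near 0. The 3 summed to 221 to 691 CPM in early and 210 to 419 CPM in late libraries. By their means they were lower late in both lines. Koshihikari had 386 ± 104 CPM early (SD, n = 10) and 282 ± 77 CPM late (n = 6). NIL-Gn1 had 404 ± 112 CPM early (n = 16) and 309 ± 48 CPM late (n = 3). The late/early ratios in Koshihikari and NIL-Gn1 were 0.804 and 0.838 for OSH1, and 0.587 and 0.617 for OSH6.

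Together the 350 loci made up a much smaller part of the RNA in late libraries, as the rule that chose them largely required. Their levels summed to 17803 to 20653 CPM in the early Koshihikari libraries (mean 19540 ± 981, SD, n = 10) and to 7953 to 8751 CPM in the late ones (8293 ± 309, n = 6). In NIL-Gn1 they summed to 17950 to 21404 CPM early (19629 ± 1185, n = 16) and to 8954 to 11297 CPM late (9909 ± 1230, n = 3). The early libraries of both lines covered the same range, and no late library came near it. The mean late sum was 0.424 of the early sum in Koshihikari and 0.505 in NIL-Gn1. The rule caps the pooled late level of every locus in each line, and so caps their pooled sum as well. The gap between early and late sums is therefore described only, and nothing is read from it. The 3 lowest early Koshihikari sums, 17978, 19364 and 17803 CPM, were those of R2 replicates 1, 4 and 5, the libraries that stood apart, and the other 7 lay between 19436 and 20653 CPM. In bulk tissue, fewer cells of a type and less RNA per cell cannot be told apart.

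Summed markers of green tissue and of lateral organs had higher means late in both lines. The green tissue list, of which the light-harvesting genes CAB1R and CAB2R carried nearly all the counts and RbcS was near 0, summed to 119 to 414 CPM early and 476 to 1641 CPM late in Koshihikari. In NIL-Gn1 it summed to 101 to 724 CPM early and 339 to 753 CPM late, so early and late libraries overlapped in NIL-Gn1 and did not in Koshihikari. The YABBY genes of lateral organs summed to 456 to 924 CPM early and 768 to 1108 CPM late over both lines, with all 6 detected. Its genes differed: OsYAB5 had late/early ratios of 1.90 in Koshihikari and 1.45 in NIL-Gn1, OsYAB3 0.845 and 0.618, and DL 0.469 and 1.27. Floral organ MADS genes stayed between 0 and 82.7 CPM early and between 17.2 and 69.6 CPM late. The 5 genes of dividing cells summed to 908 ± 213 CPM early (SD, n = 10) and 943 ± 170 CPM late (n = 6) in Koshihikari. In NIL-Gn1 they summed to 1011 ± 123 CPM early (n = 16) and 749 ± 162 CPM late (n = 3), lower late by their means. The part of meristem tissue, green tissue, lateral organs and dividing cells in the lower levels of the 350 loci was not tested.

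**Figure D1:**
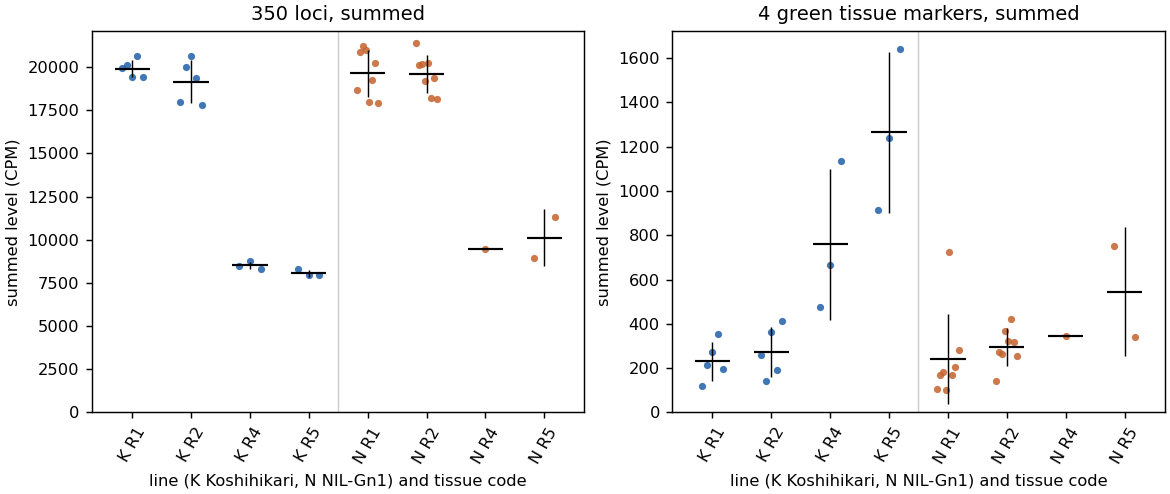
Summed level in CPM of the 350 loci (left) and of the 4 green tissue markers (right), with 1 point per library, the mean as a horizontal bar and the SD as a vertical line, by line (K Koshihikari, N NIL-Gn1) and tissue code. The 350 loci, chosen by these levels, sum to at least 17803 CPM in every early library and to at most 11297 CPM in every late one.

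Most loci crowded toward the threshold of the rule, and few lay far below it. The median ratio of late to early pooled level was 0.447 in Koshihikari (range 0 to 0.5997) and 0.479 in NIL-Gn1 (0.0486 to 0.598). Over all loci with 100 UMIs the medians were 0.910 and 0.928, so that the typical locus also stood a little lower late on this scale. With totals rescaled by TMM, a normalization to the typical locus, 255 loci passed, all of them among the 350. Only 12 loci had a ratio of at most 0.3 in both lines, and 47 of at most 0.4. The 95% counting interval of the ratio, which covers counting error only, lay wholly under 1 for 263 of the 350 in Koshihikari and 244 in NIL-Gn1. It did so in both lines for 196, so for the rest counting error alone reached no change in at least 1 line. The rule chose these ratios, so the intervals are no test. At the edge of the rule, LOC_Os03g04240 and LOC_Os02g07420 were just inside, with a larger ratio of 0.5997 each. LOC_Os03g14010 at 0.601 and LOC_Os11g03890 at 0.602 were just outside.

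The late tissues are also given one by one. Against the early level of the same line, the median over the 350 loci was 0.440 at R4 and 0.404 at R5 in Koshihikari, and 0.452 and 0.471 in NIL-Gn1. The rule caps the pooled R4 and R5 level, so nothing is read from each tissue being lower. The ratio was lower in Koshihikari than in NIL-Gn1 for 204 loci, or 58.3% of the 350, beside 50.9% of all loci with 100 UMIs.

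**Figure D2:**
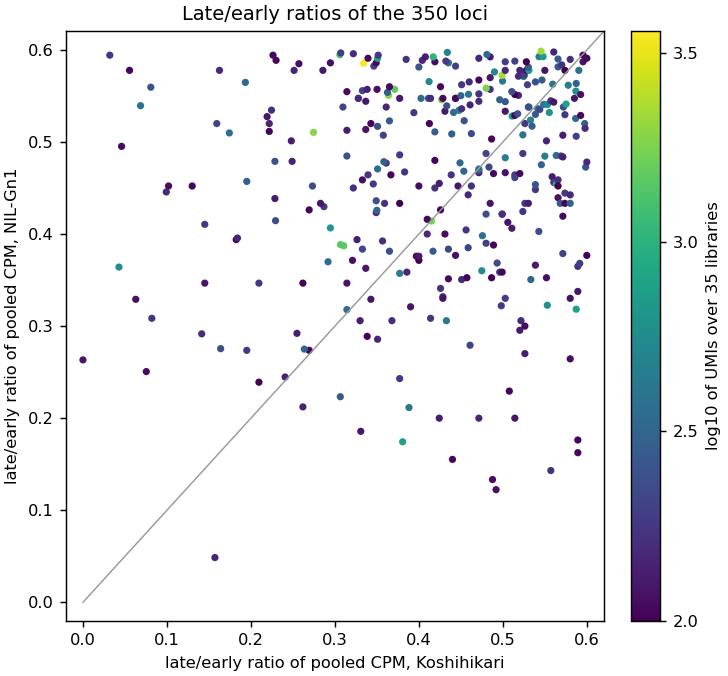
Late/early ratio of pooled CPM of each of the 350 loci in Koshihikari (horizontal axis) and NIL-Gn1 (vertical axis), coloured by log10 of its UMIs, with the line of equal ratios in grey. Most points crowd between 0.3 and 0.6 on both axes, and 204 of 350 lie on the side where the Koshihikari ratio is lower. The rule caps both ratios at 0.6, so nothing is read from this count.

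Of the 9907 loci with 100 UMIs, a ratio of at most 0.6 was met by 1813 in Koshihikari and 1224 in NIL-Gn1. The 377 shared loci were 20.8% of the first and 30.8% of the second. Past the rule in opposite directions were 49 loci lower late in Koshihikari and higher in NIL-Gn1, and 64 the other way. The numbers that unlinked lines would share were not worked out, so nothing is read from the size of these overlaps. For the opposite rule, a ratio of at least 1.67, the counts were 864, 569 and 264 shared.

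Most of the 350 loci were of low abundance, with a median of 168 UMIs (100 to 3600) beside 249 for all loci with 100 UMIs. Of loci with at least 100 and under 200 UMIs, 219 (6.11%) were among the 350, and 114 (3.18%) passed the opposite rule in both lines. From 1000 UMIs upwards the order was the other way, with 13 (1.44%) lower and 19 (2.11%) higher late. UMIs were summed over 26 early and 9 late libraries, so a locus high early reaches a given count more easily than one high late. The 2 shares are therefore not alike, and nothing is read from their order.

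**Figure D3:**
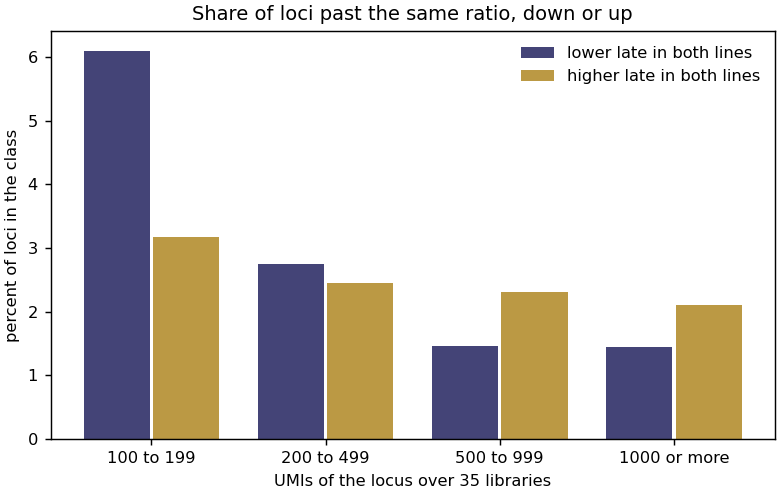
Percent of loci, by UMIs over the 35 libraries, whose late/early ratio was at most 0.6 in both lines (dark bars) or at least 1.67 in both lines (light bars). The share lower late goes from 6.11% among loci under 200 UMIs to 1.44% among those of 1000 or more.

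The loci were spread over all 12 chromosomes, as their identifiers give them. Their share of the loci considered ran from 2.65% on chromosome 12 to 4.62% on chromosome 1. Among 9369 pairs of neighbours in identifier order, 16 pairs had both loci among the 350. For 2 loci a single library held most of the counts. LOC_Os10g25230 had 64 of its 101 UMIs (63.4%) and LOC_Os04g23550 had 59 of its 116 (50.9%) in NIL-Gn1 R1 replicate 4. A single library held over 20% of the UMIs in 0.857% of the 350 and in 0.596% of all loci with 100 UMIs.

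OsMADS47 (LOC_Os03g08754, on chromosome 3), an SVP-like repressor known from rice brassinosteroid responses, was the only gene with a symbol here. In Koshihikari it stood at 9.17, 9.27, 48.2, 72.3 and 12.05 CPM in R1 and at 9.61, 51.4, 33.4, 12.1 and 73.0 CPM in R2. R4 had 9.15, 17.2 and 9.39 CPM and R5 had 0, 0 and 29.4 CPM. The early libraries varied widely, and every late one lay within or below their range. In NIL-Gn1 it had a lowest, median and highest level of 15.4, 28.2 and 58.6 CPM in R1 and of 13.5, 24.7 and 59.5 CPM in R2. The R4 library had 13.8 CPM and the R5 libraries 0 and 13.03 CPM, at the foot of the early range or below it. The late/early ratio was 0.351 in Koshihikari (95% counting interval 0.142 to 0.754, exact and covering counting error only) and 0.286 in NIL-Gn1 (0.0906 to 0.691), from 147 UMIs in all.

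Its relatives were not among the 350. OsMADS22 (LOC_Os02g52340), with 1784 UMIs, had a ratio of 0.775 in both lines. OsMADS55 (LOC_Os06g11330), with 133 UMIs, had 0.503 in Koshihikari and 0.898 in NIL-Gn1. Their difference from OsMADS47 was not tested.

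Of 72 genes in 10 lists of known panicle, meristem, floral, growth and photosynthesis genes, 44 had 100 UMIs and OsMADS47 alone belonged to the 350. In Koshihikari 4 of the 44 had a ratio of at most 0.6, beside 1813 of all 9907 loci with 100 UMIs. In NIL-Gn1 2 of the 44 had, beside 1224 of the 9907. The opposite rule was passed in both lines by 4 of the 44, beside 264 of the 9907. The 44 had a median ratio of 0.984 in Koshihikari and 1.03 in NIL-Gn1. The 4 were OsMADS14 (ratios 2.42 and 2.66) and OsMADS15 (3.60 and 3.33), AP1/FUL-like floral transition genes, with the light-harvesting genes CAB2R (5.06 and 2.03) and CAB1R (3.49 and 1.80). The 7 branch and spikelet regulators and the 6 growth-regulating factors with 100 UMIs held none of the 350. The 350 are 3.53% of all loci with 100 UMIs, and lists this small can easily hold none at that share. Nothing is therefore read from their absence. Some KNOX, ALOG and AP2 genes are left out by the rule, so these lists do not show how such families behaved.

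The other loci are given by identifier, since no table used here pairs them with names or products. The locus with most RNA was LOC_Os06g07220, with 3600 UMIs. In Koshihikari it had 513, 889, 579, 892 and 634 CPM at R1 and 1393, 607, 749, 459 and 572 CPM at R2. At R4 it had 238, 276 and 103 CPM and at R5 263, 282 and 287 CPM. No late Koshihikari library reached the lowest early one. In NIL-Gn1 the lowest, median and highest levels were 371, 705 and 940 CPM at R1 and 587, 699 and 1046 CPM at R2. R4 had 413 CPM and R5 had 401 and 612 CPM, inside the early range. The ratio was 0.334 in Koshihikari (0.283 to 0.393) and 0.585 in NIL-Gn1 (0.511 to 0.668).

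The second most abundant, LOC_Os10g40614, had pooled levels of 434 CPM early and 216 CPM late in Koshihikari, and 470 and 269 CPM in NIL-Gn1. Its NIL-Gn1 R5 libraries lay far apart, at 178 and 508 CPM. LOC_Os05g43690 had ratios close to the threshold, 0.545 and 0.598. LOC_Os05g45430 had the lowest Koshihikari ratio of the 8 most abundant, at 0.274 (0.213 to 0.350), beside 0.510 (0.418 to 0.617) in NIL-Gn1. Its Koshihikari R5 libraries had 217, 18.2 and 88.3 CPM, so the spread between replicates was wide, and the highest of them was still under all early Koshihikari libraries.

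LOC_Os10g20650 was uneven over the late Koshihikari libraries. R4 had 357, 224 and 160 CPM and R5 had 101, 128 and 110 CPM, so the tissues did not overlap. The difference of R5 from R4 did not pass the test (log2 fold change -1.11, SE 0.304, edgeR adjusted p = 0.292). LOC_Os09g36910 showed the same order, with 247, 164 and 160 CPM in R4 and 116, 109 and 118 CPM in R5, and did not pass either (-0.70, SE 0.537, edgeR adjusted p = 0.854). LOC_Os03g08790 had almost the same ratio in both lines, 0.415 and 0.414.

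**Figure D4:**
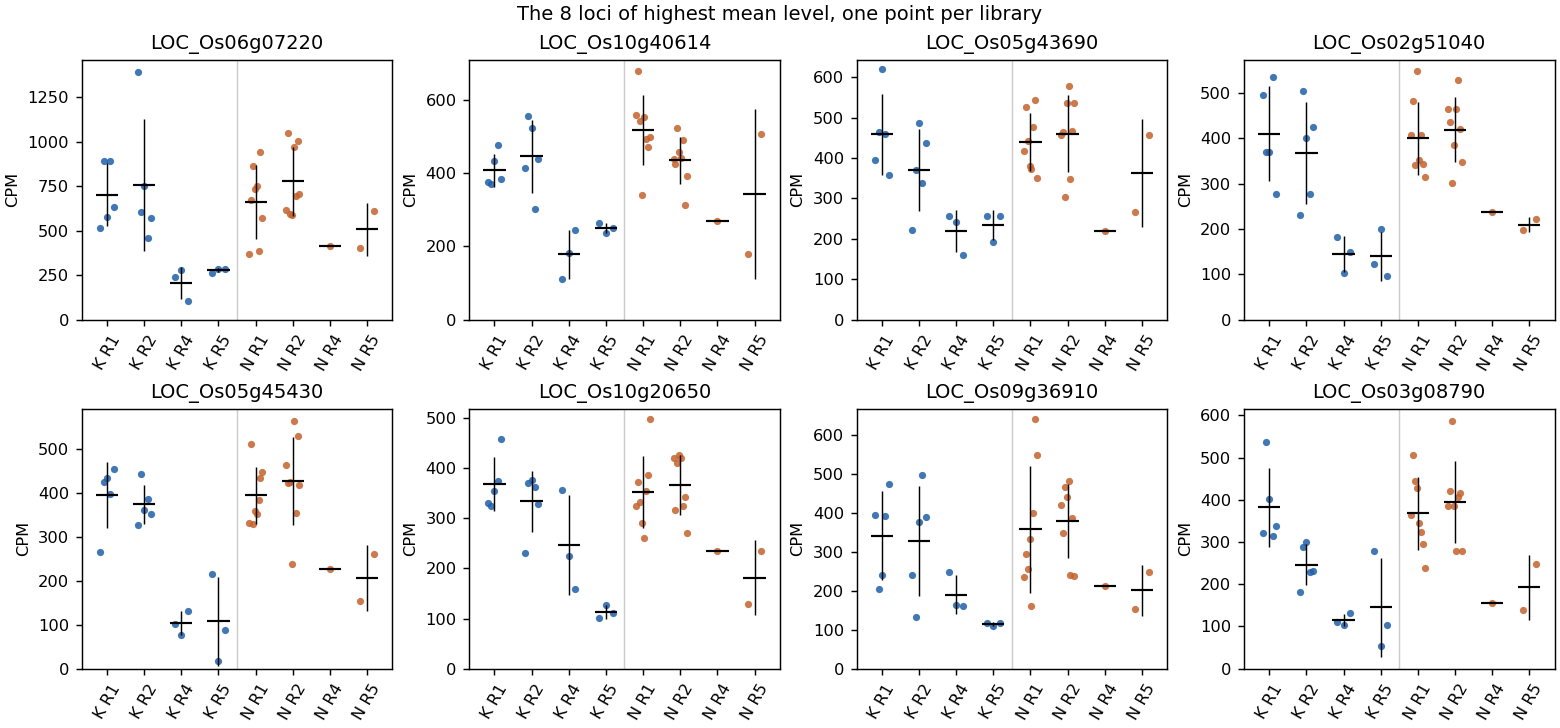
Level in CPM of the 8 most abundant of the 350 loci, with 1 point per library, the group mean as a horizontal bar and the SD as a vertical line, by line (K Koshihikari, N NIL-Gn1) and tissue code. In LOC_Os06g07220, LOC_Os10g40614, LOC_Os02g51040 and LOC_Os05g45430 every late Koshihikari library lies below all early ones.

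Separation of every late from every early library was rare at this depth. It held for 19 of the 350 in Koshihikari, where 0.868% of all loci with 100 UMIs were so separated with late lower, and for 14 in NIL-Gn1, where 0.727% were. The rule used this contrast, and nothing is read from these counts. Both lines separated for 4 loci, named after their values were seen. LOC_Os02g51040 had 231 to 537 CPM early (median 386) and 95.6 to 200.5 CPM late (median 137) in Koshihikari, and 302 to 550 CPM early (408) and 198 to 237 CPM late (222) in NIL-Gn1. LOC_Os04g14810 had 86.5 to 314 CPM early (165) and 45.6 to 86.2 CPM late (59.1) in Koshihikari, and 52.6 to 302 CPM (158) and 24.1 to 52.1 CPM (29.7) in NIL-Gn1. In the latter locus the late and early libraries nearly touched in both lines. LOC_Os02g53000 had ratios of 0.294 and 0.406, and LOC_Os03g47730 of 0.164 and 0.275.

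The loci with the lowest ratios had few counts. LOC_Os07g38640 had 3 late UMIs in Koshihikari and 1 in NIL-Gn1, giving ratios of 0.157 (0.0309 to 0.497) and 0.0486 (0.00122 to 0.277). Early Koshihikari libraries also included some at 0. LOC_Os02g34900 had 55.0, 46.3, 40.2, 6.03 and 24.1 CPM at R1 and 9.61, 30.9, 42.9, 12.1 and 36.5 CPM at R2 in Koshihikari. All 6 late Koshihikari libraries were at 0, and the early level was 7.07-fold over the late limit of 3 counts in the group. The Koshihikari ratio was 0 (0 to 0.182). In NIL-Gn1 its ratio was 0.263 (0.0700 to 0.701).

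LOC_Os08g27250 had 1 late UMI in Koshihikari (ratio 0.0754, 0.00184 to 0.461) and 4 in NIL-Gn1 (0.250, 0.0667 to 0.666). LOC_Os01g65986 had ratios of 0.241 and 0.245, and LOC_Os04g43650 of 0.262 and 0.212. LOC_Os10g25230 rests on a single library. NIL-Gn1 R1 had a median of 15.4 CPM and a highest library of 259 CPM, and in Koshihikari the interval of its ratio, 0.00478 to 1.51, included 1.

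Differences that the rule does not set, between the lines and within early or late tissue, were compared next. Their values come from the same libraries, and the rule caps the late level of each line at 0.6 of its early level. The tests are therefore not fully independent of the choice of loci. Of the 350 loci, 208 passed the filter on low counts and were tested, within a fit of 7406 loci. A locus could pass through a single library, since the smallest group holds 1. This was so for LOC_Os04g41238, LOC_Os03g27780 and LOC_Os02g35100 below, each through a library of the line where it is higher. Their calls are given with that limit. Between the lines in early tissue, 2 of the 208 were higher in NIL-Gn1 and 4 lower. Over all tested loci 0.608% were called higher and 1.71% lower. An unadjusted p under 0.05 was seen for 10.1% of the 208 and 14.0% of all. DESeq2 called 5 of the 208 and limma-voom 6. The median log2 fold change was 0.0021 over the 208 and 0.017 over all.

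LOC_Os03g51640 was higher in NIL-Gn1. Early Koshihikari libraries had 36.7, 18.5, 24.1, 24.1 and 48.2 CPM at R1 and 57.7, 20.6, 42.9, 60.4 and 85.2 CPM at R2. NIL-Gn1 had a lowest, median and highest level of 51.2, 94.8 and 197 CPM at R1 and of 53.6, 102 and 188 CPM at R2. At R1 the lines did not overlap, and at R2 they did. The log2 fold change was 1.29 (SE 0.250, edgeR adjusted p = 0.000297). LOC_Os02g35100 was also higher in NIL-Gn1 (1.17, SE 0.334, edgeR adjusted p = 0.0330), and this call was lost without the 3 Koshihikari R2 libraries that stood apart (0.81, edgeR adjusted p = 0.2995). It was also lost without any one of Koshihikari R1 replicates 2 (edgeR adjusted p = 0.0590), 4 (0.0518) and 5 (0.0873), Koshihikari R2 replicates 1 (0.0689), 2 (0.0645), 4 (0.0683) and 5 (0.0697), or NIL-Gn1 R1 replicate 7 (0.0503).

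LOC_Os04g41238 was lower in NIL-Gn1. Koshihikari had 110, 64.9, 48.2, 54.3 and 56.2 CPM at R1 and 38.4, 51.4, 57.2, 12.1 and 0 CPM at R2. NIL-Gn1 had a lowest, median and highest level of 0, 7.82 and 42.2 CPM at R1 and of 0, 6.07 and 15.0 CPM at R2. Every Koshihikari R1 library was above every NIL-Gn1 R1 library, and at R2 the 2 lowest Koshihikari libraries lay among those of NIL-Gn1. The log2 fold change was -2.38 (SE 0.447, edgeR adjusted p = 0.000174). The pooled level was 5.55-fold higher in Koshihikari (counting interval 3.54 to 8.94). Without Koshihikari R1 replicate 1, its highest library, too few counts remained for a test of this locus. It was also not tested in a fit of only the early groups or with a filter at a mean of 10 counts. At R1 alone the log2 fold change was -2.32 (SE 0.564, edgeR adjusted p = 0.0161). At R2 alone it was -2.43 and did not pass (edgeR adjusted p = 0.0781).

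LOC_Os05g01256, of high abundance, was lower in NIL-Gn1 by a small margin (log2 fold change -0.57, SE 0.132, edgeR adjusted p = 0.00435). Koshihikari had 312, 232, 314, 452 and 277 CPM at R1 and 269, 360, 487, 387 and 134 CPM at R2. NIL-Gn1 had a lowest, median and highest level of 219, 267 and 337 CPM at R1 and of 129, 181 and 286 CPM at R2. The lines overlapped in both tissues, and the call was lost without Koshihikari R2 replicate 3 (edgeR adjusted p = 0.0694). LOC_Os03g27780 (-1.78, SE 0.452, edgeR adjusted p = 0.0119) and LOC_Os02g05830 (-0.94, SE 0.259, edgeR adjusted p = 0.0253) were also lower in NIL-Gn1. For the first the log2 fold change was -2.76 at R1 (SE 0.654, edgeR adjusted p = 0.0136) and -0.80 at R2 (edgeR adjusted p = 0.709), a difference between tissues that was not tested. It was lost without Koshihikari R2 replicate 1 (edgeR adjusted p = 0.0599) or without the 3 libraries apart (0.0606), and without Koshihikari R1 replicate 3 it was not tested. LOC_Os02g05830 was lost without Koshihikari R1 replicate 4 (edgeR adjusted p = 0.169) and without R2 replicate 2 (0.0956) or 3 (0.166).

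**Figure D5:**
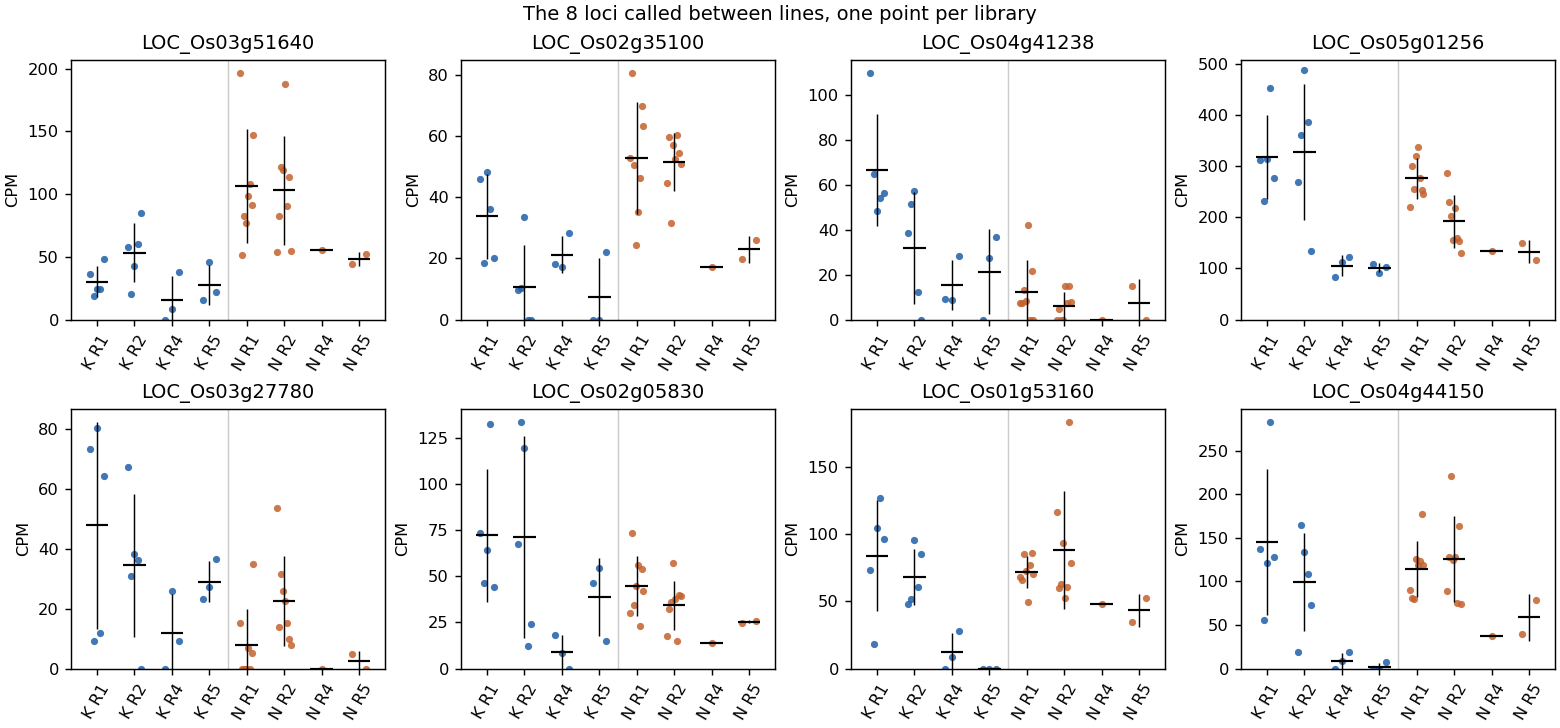
Level in CPM of the 8 loci called between the lines in early or late tissue, with 1 point per library, the group mean as a horizontal bar and the SD as a vertical line, by line (K Koshihikari, N NIL-Gn1) and tissue code. LOC_Os01g53160 and LOC_Os04g44150 stand between 0 and 28.2 CPM in late Koshihikari libraries and between 34.7 and 78.2 CPM in late NIL-Gn1 libraries.

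In late tissue 2 of the 208 loci were higher in NIL-Gn1 and 0 lower. Over all tested loci 0.419% were called higher and 0.365% lower. Both called loci passed the filter on low counts through early libraries, where they are high, and in a fit of only the late groups neither was tested. An unadjusted p under 0.05 was seen for 18 of the 208 (8.65%) and for 13.5% of all tested loci. DESeq2 called 2 of the 208 and limma-voom 1. The median log2 fold change was 0.089 over the 208 and 0.0056 over all.

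LOC_Os01g53160 had overlapping early levels in both lines and a lower late level in Koshihikari. Early Koshihikari libraries had 73.3, 18.5, 105, 127 and 96.4 CPM at R1 and 48.0, 51.4, 95.4, 60.4 and 85.2 CPM at R2. Koshihikari R4 had 0, 8.62 and 28.2 CPM, and all 3 R5 libraries were at 0. NIL-Gn1 had 48.2 CPM at R4 and 34.7 and 52.1 CPM at R5. No late library of one line overlapped the other line. The pooled late level, from 25 UMIs in NIL-Gn1 and 4 in Koshihikari, was 7.76-fold higher in NIL-Gn1 (counting interval 2.68 to 30.7). The fitted log2 fold change was 3.83 (SE 0.829, edgeR adjusted p = 0.00385), and it ran from 2.72 to 5.77 over the alternatives that tested it. A fit of only the late groups did not test this locus, which passed the filter through early libraries. The rule also used its low late Koshihikari level, so the p-value is not independent of the choice of loci. At R5 Koshihikari had 0 UMIs and NIL-Gn1 11, a level 4.93-fold over the Koshihikari limit of 3 counts. That figure leaves out the counting error of the 11 UMIs. The early difference did not pass the test (log2 fold change -0.01, SE 0.215, edgeR adjusted p = 0.997).

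LOC_Os04g44150 showed the same order with the same late counts, 25 and 4 UMIs. Koshihikari had 138, 55.6, 121, 283 and 129 CPM at R1 and 19.2, 165, 134, 109 and 73.0 CPM at R2. It had 0, 8.62 and 18.8 CPM at R4 and 0, 0 and 7.36 CPM at R5. NIL-Gn1 had 37.8 CPM at R4 and 39.6 and 78.2 CPM at R5, above every late Koshihikari library. The log2 fold change was 2.93 (SE 0.742, edgeR adjusted p = 0.0287), with the same limits of filter and rule. The call was lost without Koshihikari R4 replicate 2 (edgeR adjusted p = 0.0649) or 3 (0.0625), Koshihikari R5 replicate 2 (0.0770) or 3 (0.0688), or NIL-Gn1 R5 replicate 2 (0.0869).

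Within early and within late tissue, few or none of the 208 tested loci were called. Between R2 and R1 over both lines edgeR called 0 of the 208 (0% of all tested loci), DESeq2 0 and limma-voom 0, and 20 of the 208 (9.62%) had an unadjusted p under 0.05, beside 7.16% of all. In NIL-Gn1 alone 1 locus was lower at R2 than at R1, LOC_Os04g23550 (log2 fold change -4.61, SE 0.840, edgeR adjusted p = 0.00430), named after its values were seen; NIL-Gn1 R1 replicate 4 holds 50.9% of its UMIs. Between R5 and R4 in Koshihikari the same tools called 0, 0 and 0 of the 208 (edgeR 0% of all tested loci), with 14 (6.73%) at an unadjusted p under 0.05, beside 7.24% of all. The median log2 fold change over the 208 was -0.03 and -0.06. By the order of pooled levels alone, R5 was under R4 for 195 of the 350 in Koshihikari (55.7%) and for 154 in NIL-Gn1 (44.0%), beside 51.9% and 51.5% of all loci with 100 UMIs. The NIL-Gn1 figure rests on 1 library at R4 and 2 at R5.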

How the data were processed

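The table deposited by the authors gives raw UMI counts per locus, with no normalization. Per the submitters' processing notes Bowtie2 and Subread 2.1 were used; what each did, the build and the gene models are not given in the sources used here. Every column was mapped to a library by its title. Counts were whole and non-negative. All 83 pairs of replicate libraries differed by more than sampling noise (chi-square over its degrees of freedom at least 1.37), and each library was counted as 1 sample.

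Levels are CPM of the library totals. The model was edgeR 4.0.16 in R 4.3.3, run on all 35 libraries with TMM, filterByExpr, 1 coefficient per group and the quasi-likelihood test. The filter kept 7406 loci with 86.7% of the UMIs, and the biological coefficient of variation was 21.1%. Benjamini-Hochberg adjustment ran over all tested loci, and an adjusted p under 0.05 was called. SEs are the log2 fold change over the root of F. Where no tool is named, an adjusted p is edgeR's. Line contrasts average R1 and R2, or R4 and R5. The fit was tested on simulated data.

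The members and lists were chosen with earlier results of these data known. Named loci were the list genes, the 8 with the highest mean level, the 6 with the lowest larger ratio, the loci called (up to 6 per direction and comparison) and the 2 nearest to the threshold on each side. Of 74 list genes, compared with the RefSeq gene table by symbol, 2 lay on another chromosome and were left out, and 16 symbols were not in it; 0 locus identifiers matched. Alternatives used limma 3.58.1 and DESeq2 1.42.0, other ratios, UMI minimums and scalings, a replicate block and leaving out each library. Without Koshihikari R2 replicates 1, 4 and 5 was added after seeing the data. Counting intervals used scipy 1.17.1, with numpy 2.4.6, pandas 2.3.3 and matplotlib 3.10.9 in Python 3.11.15.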

Additional observations from a re-analysis of the deposited data

Results flagged for a closer look

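Among the named loci, 10 group values stood apart from the rest of their group by Dixon's test, of 96 groups tested. The usual rate of 1 in 20 groups, or 4.8 here, does not hold for groups mostly at 0 UMIs, so the 10 are not weighed against it. LOC_Os10g25230 was flagged in 4 groups, at 48.2 CPM in Koshihikari R1 replicate 4, 10.3 CPM in Koshihikari R2 replicate 2, 258.7 CPM in NIL-Gn1 R1 replicate 4 and 11.7 CPM in NIL-Gn1 R2 replicate 9. In both Koshihikari groups the other libraries were at 0, and the flagged R2 value was 1 UMI.

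NIL-Gn1 R1 replicate 4 was also high for LOC_Os01g65986, at 60.6 CPM, and held most of the counts of LOC_Os04g23550. LOC_Os03g08790 stood at 586.9 CPM in NIL-Gn1 R2 replicate 4, and LOC_Os02g34900 at 79.3 CPM in NIL-Gn1 R2 replicate 8. Of the loci called between the lines, LOC_Os04g41238 stood high at 110.0 CPM in Koshihikari R1 replicate 1, LOC_Os03g27780 at 35.1 CPM in NIL-Gn1 R1 replicate 8 and LOC_Os04g44150 at 177.2 CPM in NIL-Gn1 R1 replicate 7.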

How the results depend on the processing

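The number of loci depended most on the rule's limits. It was 131 at a ratio of at most 0.5, 800 at 0.7, 131 with 200 or more UMIs, 630 with 50 or more and 583 with R5 alone as late tissue, of which 213 were among the 350. Mean library levels gave 387, of which 276 were, and TMM totals 255, all among them. Leaving out 1 library gave 316 to 481, the highest without the only NIL-Gn1 R4 library, where 252 of the 350 remained.

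In early tissue 6 loci were called between the lines. A filter at a mean of 10 counts gave 2 (57 of the 350 tested), a fit of only the groups compared 3, R1 alone 3 and R2 alone 1. Leaving out 1 library gave 4 to 6. In late tissue 2 were called; limma-voom and R5 alone gave 1 each, a fit of only the groups compared gave 1, which was neither of the 2 (both untested there), and leaving out 1 library gave 1 to 2. That contrast could not be fitted without the NIL-Gn1 R4 library. For R2 against R1, no filter gave 1 and NIL-Gn1 alone gave 1, and leaving out 1 library gave 0 to 0; R5 against R4 had 0 under every alternative run. The causes were not tested, beyond the fewer loci tested under the stricter filter. No direction reversed. No filter moved the median log2 line difference of all loci in early tissue from 0.017 to 0.11.

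With the replicate number as a block, 2 of the 6 early calls between the lines remained, and the other counts kept their value. Over 54 same-numbered pairs of libraries the correlation of deviations from group means was -0.054 to 0.081, with 0 pairs over 0.1. The labels name no libraries that share a plant, so these values do not show whether the numbers pair the samples. Depth limits most of the 350 loci, whose late values rest on few UMIs per library.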
